A study of Mus musculus with 16 samples.

Results

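The transcripts of 37 genes that make cholesterol and fatty acids, or control their making, were followed across 16 RNA libraries from T-ALL lines of the mouse (T-ALL is acute lymphoblastic leukaemia of T cells) and derivatives of these lines that resist a drug. The genes were chosen by name from the known pathways, and all 37 have a row among the 13474 genes of the deposited table. They fall into 5 groups: 8 genes of the mevalonate arm, 11 that turn farnesyl units into cholesterol, 6 regulators and sterol carriers of the SREBP system, 5 of fatty acid supply and synthesis, and 7 elongases and desaturases. The 19 genes of the mevalonate and squalene groups are called the sterol enzyme genes below. The lines 2883, 2696, 2641 and 2869 have the genotype Mcm2cre/cre, in which an insertion at Mcm2 lowers expression of that replication helicase subunit, and line 7298 is SCL/LMO1 transgenic. Each line was sequenced as a parental culture, labelled with PBS as treatment. Beside these stood 11 cultures resistant to cytarabine (lines 7298, 2883 and 2869), vincristine (2883, 2696 and 2869), etoposide (2883 and 2696), prednisone (2883 and 2641) or methotrexate (2883), each labelled with that drug as treatment. All cells came from thymus, were grown in DMEM with serum, and carry the same batch label. Dose, length of selection and whether a derivative is 1 clone were not given in the sources used here. Each culture gave 1 library, so n counts derivatives of different lines.

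Cholesterol synthesis starts from acetyl-CoA, passes through mevalonate and the isoprenoid farnesyl diphosphate, and runs through squalene and lanosterol to cholesterol; fatty acid synthesis draws on the same acetyl-CoA pool. Most of these genes are targets of the transcription factors SREBP1 and SREBP2, encoded by Srebf1 and Srebf2. When sterols in the endoplasmic reticulum are low, the escort protein Scap carries SREBP to the Golgi for cleavage, and when sterols are high the Insig proteins hold the complex back. Proliferating T cells are known to use this system to supply membranes.

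SREBPs bind sterol regulatory elements and E-boxes beside CCAAT and GC boxes, so the promoter sequences of 5 genes are shown whose levels carry the results below: the enzymes Lss, Msmo1, Hmgcs1 and Cyp51 and the retention factor Insig1. Each run holds the 250 bases before the RefSeq start on the gene's own strand (build GRCm38.p6), at chr10:76531355-76531604 (plus strand), chr8:64733579-64733828 (minus), chr13:119690101-119690350 (plus), chr5:4104698-4104947 (minus) and chr5:28071162-28071411 (plus). Capitals mark matches to the sterol regulatory element core TCACNCCAC, the E-box CACGTG and the CCAAT box (ATTGG or CCAAT), on either strand.
Lss: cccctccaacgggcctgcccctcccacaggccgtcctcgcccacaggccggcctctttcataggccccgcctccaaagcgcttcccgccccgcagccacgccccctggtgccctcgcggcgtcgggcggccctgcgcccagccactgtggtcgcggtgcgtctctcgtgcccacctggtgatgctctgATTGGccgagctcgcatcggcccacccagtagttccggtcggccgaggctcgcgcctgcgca
Msmo1: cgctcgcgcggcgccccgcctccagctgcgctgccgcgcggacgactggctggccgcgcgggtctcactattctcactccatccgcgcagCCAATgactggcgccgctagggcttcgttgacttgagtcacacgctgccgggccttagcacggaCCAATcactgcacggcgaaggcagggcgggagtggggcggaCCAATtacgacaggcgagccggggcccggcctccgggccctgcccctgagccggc
Hmgcs1: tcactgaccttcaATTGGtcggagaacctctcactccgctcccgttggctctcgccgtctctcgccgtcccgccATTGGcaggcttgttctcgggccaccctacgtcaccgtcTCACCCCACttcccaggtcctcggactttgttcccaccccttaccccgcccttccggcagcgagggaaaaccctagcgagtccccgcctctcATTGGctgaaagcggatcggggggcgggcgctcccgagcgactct
Cyp51: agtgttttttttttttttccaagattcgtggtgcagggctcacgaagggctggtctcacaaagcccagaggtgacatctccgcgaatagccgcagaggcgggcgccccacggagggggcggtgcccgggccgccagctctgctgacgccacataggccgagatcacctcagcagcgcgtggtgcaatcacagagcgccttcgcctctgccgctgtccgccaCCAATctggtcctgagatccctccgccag
Insig1: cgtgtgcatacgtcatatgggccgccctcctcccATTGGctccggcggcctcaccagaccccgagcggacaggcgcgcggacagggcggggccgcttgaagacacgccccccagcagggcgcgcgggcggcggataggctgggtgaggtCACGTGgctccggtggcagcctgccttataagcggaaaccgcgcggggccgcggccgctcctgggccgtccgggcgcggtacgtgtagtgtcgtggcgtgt

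The same letters were searched on both strands in RefSeq windows from 250 bases before to 50 after a start, which the reference used here holds for 30 of the 37 genes (40 windows). No window is at hand for Fdft1, Scd1, Sqle, Scd2, Fdps, Fads1 and Stard4. ATTGG occurred in 24 of 30 genes (80%) against 41.1% of all 27025 genes of the RefSeq promoter table, a larger set than the genes measured, and in 9 of 9 genes of the squalene to cholesterol group. The GC box GGGCGG was likewise in 24 of 30 genes, against 38.2% of all genes. CACGTG was in 6 of 30 (20%) against 8.09%. TCACNCCAC was in 1 of 30, Hmgcs1, against 1.44% of all genes. These are matches of letters, and no test was made of them.

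The derivatives had an estimated depth of 14066000 to 18956000 reads, and the parental cultures of 12142000 to 13498000. Depth therefore separates parental from resistant cultures completely, and its part in a difference between them cannot be told apart. It does not separate etoposide (14260000 and 17174000 reads) from vincristine derivatives of the same lines (14600000 and 16579000). Depth is an estimate that takes the lowest value of a library as 0.1 read. Levels are given in CPM, the counts of a gene scaled by depth, derived from the deposited FPKM. The 6 T lineage markers summed to 1563 to 3278 CPM in the 16 libraries, with all 6 present; no B lineage, erythroid or epithelial marker of the lists has a row, and of the myeloid list only Itgam has one, at 2.74 to 33.1 CPM. Of the fibroblast list, Pdgfra alone has a row, at 7.81 CPM or less, and of the adipocyte list Fabp4, at 1.51 to 202.8 CPM. Mcm2 was at 54.0 to 187 CPM in the 14 Mcm2cre/cre libraries and at 320.5 and 446 in the libraries of 7298, and Lmo1 was at 222 and 270.1 CPM there with no read outside line 7298. Tal1, the mouse gene that SCL names, was at 0.0622 CPM or less in the libraries of 7298 and at up to 5.76 in the others, so its row does not show the SCL part of that line's label; whether the transgene's reads would fall on this row is not known here. In bulk RNA, fewer cells of a type and less RNA per cell cannot be told apart.

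In the parental libraries the genes spanned a wide range of levels per kilobase of exon. The stearoyl-CoA desaturase gene Scd2 stood highest, at a median of 377 CPM per kb of exon over the 5 lines, followed by Idi1 (82.6), Hmgcs1 (82.1), Acly (81.0), Elovl5 (77.6) and Fasn (73.3). Idi1, Hmgcs1 and Acly lie closer to each other than their lines spread and have no order among them. The lowest were Me1 (0.137), Acss2 (2.67) and Tm7sf2 (3.96), and the median gene was at 18.3. Me1, the malic enzyme that makes NADPH, had 0 to 27 reads per library and is close to undetected; it stays in the counts of members, but its ratios rest on few reads.

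The parental culture of 7298, the SCL/LMO1 line, held more of these transcripts than the Mcm2cre/cre parental cultures. It was above each of the other 4 in 29 of 37 genes, against 16.3% of all 13261 genes tested, and in 18 of the 19 sterol enzyme genes. Its median ratio to the median of those 4 libraries was 2.03 over the 37 genes and 2.32 over the 19, against 0.957 over all genes. Mvd (4.80-fold), Elovl6 (4.12-fold), Nsdhl (4.08-fold) and Hmgcs1 (3.48-fold) stood highest above the others, while Scap (0.805), Srebf1 (0.878) and Acaca (0.924) were below the median of the others. Summed over the 19 genes, the level was 5060 CPM in 7298 against 2652 in 2883, 2042 in 2696, 1828 in 2641 and 1665 in 2869. This is 1 library of 1 line with another genotype, so the difference has no replicate and was not tested.

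**Figure D1:**
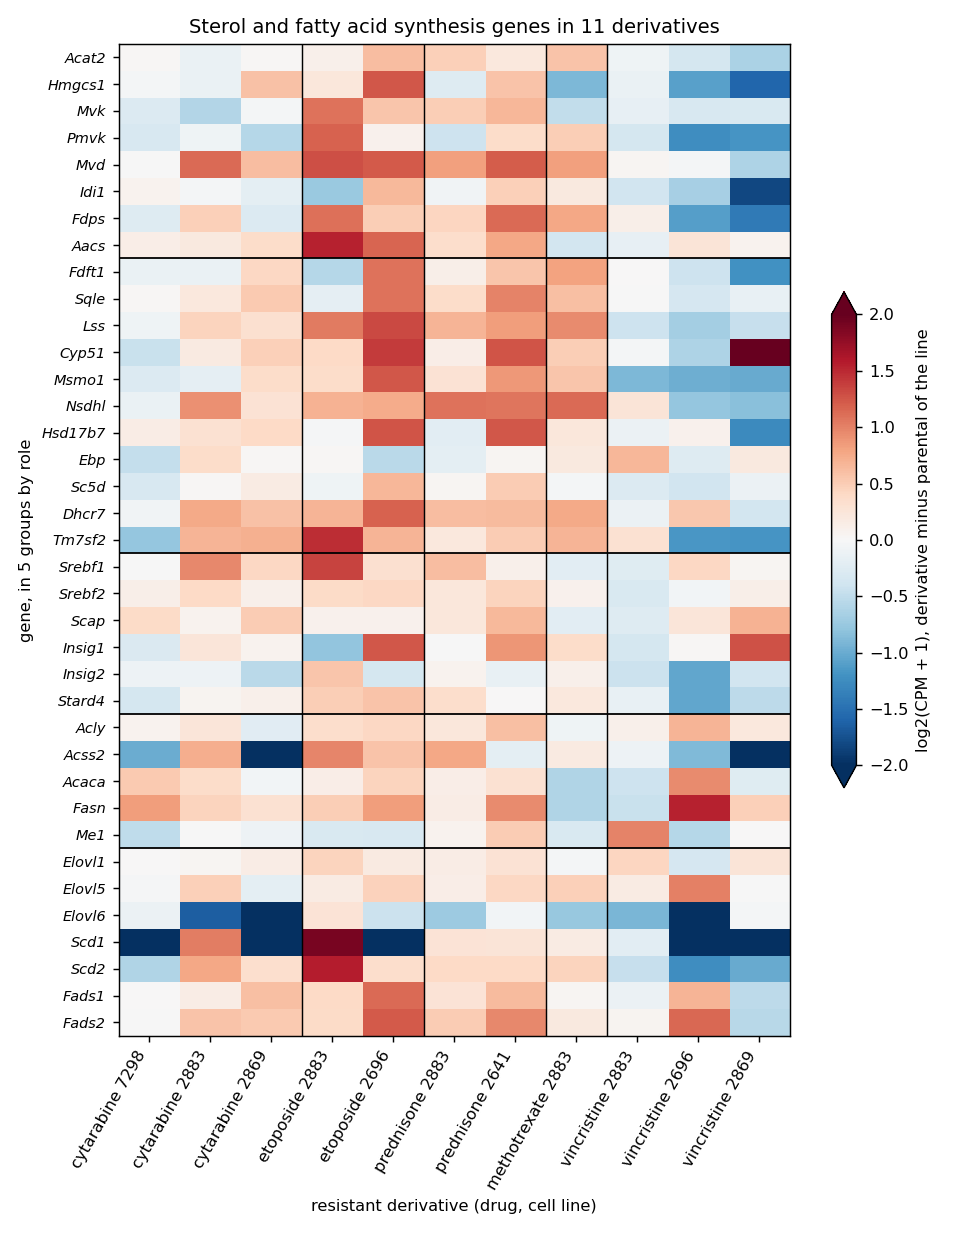
Difference in log2(CPM + 1) between each of the 11 resistant derivatives (columns) and the parental library of its line, for the 37 genes (italic, ordered by role and split by lines into 5 groups). Red is higher and blue lower than parental, and colours are cut at 2 in either direction; the etoposide and prednisone columns are mostly red and the vincristine columns of 2696 and 2869 mostly blue.

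Against the parental state, the drugs lay on different sides. The 37 genes had a median log2 difference of 0.50 in the etoposide derivatives (n = 2), 0.35 in the prednisone derivatives (n = 2), 0.13 in the cytarabine derivatives (n = 3) and -0.26 in the vincristine derivatives (n = 3), while the median of all genes lay between -0.04 and 0.02. These are differences in log2(CPM + 1), which understates changes of low genes. Limma (adjusted p under 0.05) called 0 of 37 genes in each of the 4 comparisons, beside 0% of all genes in each, so none of the differences from parental stands as a called change. All 4 comparisons share the parental libraries and are given side by side only.

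Etoposide-resistant cultures of 2883 and 2696 were set against their parental cultures. Of 37 genes, 33 had a positive difference, against 47.7% of all genes. An unadjusted p under 0.05 was seen in 10 of 37 (8.68% of all genes in either direction). All 10 were higher, against 3.69% of all genes, and 0 were lower, against 4.99%. In both derivatives 26 genes were above parental, where 24.4% of all genes were, and 1, Me1, was below, where 29.2% were. Aacs had the smallest adjusted p (log2 difference 1.40 ± 0.19, SE; adjusted p = 0.149 by limma), followed by Lss (1.16 ± 0.17; adjusted p = 0.165). The summed level of the 19 sterol enzyme genes was 3389 CPM against 2652 in parental 2883, and 4164 against 2042 in 2696. The 6 markers of proliferation summed to 2718 CPM in the derivative of 2883 and 2092 in that of 2696. The parental cultures were at 3419 to 4725, and both sums were the lowest among the 16 libraries. Most of the gap to the parental culture of the line was Top2a, at 515.8 CPM against 1252 in 2883 and 353.5 against 1304 in 2696. Mki67 was at 1510 against 1580 and at 1121 against 1329, and the remaining markers were also lower. The part of these markers in the result was not tested.

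Prednisone resistance was compared in lines 2883 and 2641. Here 31 of 37 genes had a positive difference (49.1% of all genes) and 9 an unadjusted p under 0.05 (8.46% of all genes). Of these, 9 were higher (4.23%) and 0 were lower (4.23%). In both derivatives 28 genes were above parental (25.8% of all genes) and 1, Elovl6, was below (27%). The derivative of 2641 carried most of the difference. All 19 sterol enzyme genes were above its parental library (44.6% of all genes), 11 of them by at least 1.5-fold (10.1%). Their median ratio was 1.62, against 1.22 in the derivative of 2883. The proliferation markers, at 3613 and 3906 CPM, lay within the parental range.

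Vincristine resistance was compared in lines 2883, 2696 and 2869. Of 37 genes 12 had a positive difference (45.7% of all genes) and 25 a negative one. An unadjusted p under 0.05 was seen in 13 (13% of all genes). Of these 12 were lower, against 7.84% of all genes, and 1 (Acly) was higher, against 5.19%. In all 3 derivatives 15 genes were below parental (19.9% of all genes) and 1, again Acly, was above (13.5%). Line 2883 gave the smallest differences: its 19 sterol enzyme genes had a median ratio of 0.924, against 0.748 in 2696 and 0.631 in 2869. The vincristine library was the lowest of its line for 15 of 19 sterol enzyme genes in 2696 (37.7% of all genes) and for 16 of 19 in 2869 (44.5%), but for 5 of 19 in 2883 (15.7%), where 6 libraries compete. Proliferation markers were at 3844 to 4231 CPM, within the parental range.

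Cytarabine resistance was compared in lines 7298, 2883 and 2869, and the members split. A positive difference was seen in 27 of 37 genes (52.85% of all genes). An unadjusted p under 0.05 was seen in 4 (9.42% of all genes), of which 3 were higher (5.38%) and 1 lower (4.04%). In all 3 derivatives 8 genes were above parental (15.1% of all genes) and 5 below (14.8%), shares near or above the background in both directions. Mvd (0.68 ± 0.23; limma adjusted p = 0.496), Dhcr7 (0.55 ± 0.20; 0.502) and Fasn (0.69 ± 0.31; 0.530) were the 3 on the higher side, and Elovl6 (-1.57 ± 0.54; 0.498) was the 1 on the lower side. The median ratio of the 19 sterol enzyme genes was 0.908 in 7298, 1.15 in 2883 and 1.30 in 2869.

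With all 11 derivatives set against the parental state, 26 of 37 members had a positive difference, beside 48.3% of all genes, and their median was 0.13. Limma called 0 of 37 genes (0% of all genes), 4 had an unadjusted p under 0.05 (8.33% of all genes), 3 higher (3.4%) and 1 lower (4.93%). The 3 were Scap (0.32 ± 0.12), Fasn (0.61 ± 0.23) and Fads2 (0.49 ± 0.20), and the 1 was Scd1 (-2.28 ± 0.77). None was above, and none below, its parental library in every derivative, where 0.686% and 1.71% of all genes were.

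Within single derivatives, members at least 1.5-fold away from parental were counted beside the share of all genes that far away in the same direction, in brackets and with no test. There were 13 higher (23%) and 3 lower (19.7%) in etoposide 2883, 19 higher (10.6%) and 2 lower (12.7%) in etoposide 2696, 6 higher (17.6%) and 1 lower (14%) in prednisone 2883 and 18 higher (10.1%) and 0 lower (17.9%) in prednisone 2641. Vincristine gave 2 higher (16.7%) and 2 lower (17.3%) in vincristine 2883, 6 higher (13.8%) and 16 lower (21.4%) in vincristine 2696 and 3 higher (16.8%) and 14 lower (17.9%) in vincristine 2869. Cytarabine gave 1 higher (8.23%) and 5 lower (15.2%) in cytarabine 7298, 8 higher (22.7%) and 2 lower (15.9%) in cytarabine 2883 and 4 higher (20.1%) and 4 lower (12.2%) in cytarabine 2869. Shares of higher members lay furthest above the shares of all genes in etoposide 2696 and prednisone 2641, and shares of lower members in vincristine 2696 and vincristine 2869. The count for prednisone 2641 includes Me1, which had no read in parental 2641.

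**Figure D2:**
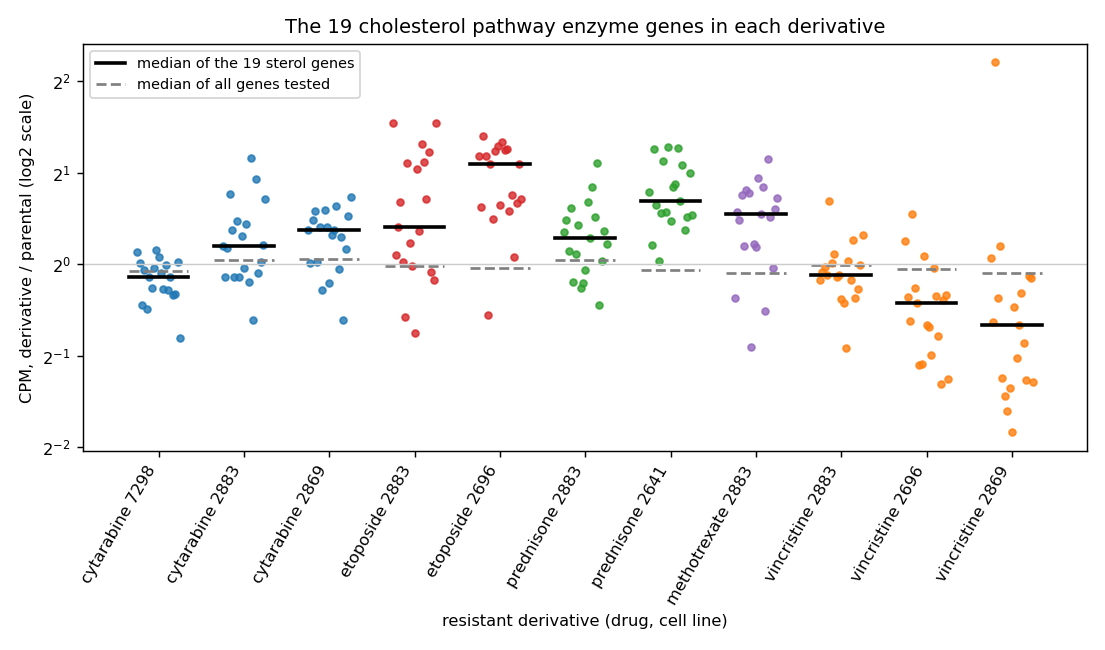
Ratio of CPM in each derivative to CPM in the parental library of its line (log2 axis) for the 19 sterol enzyme genes, 1 point per gene, coloured by drug. Black bars are medians of the 19 genes and dashed grey bars medians of all genes tested; the highest black bar is at 2.13 (etoposide 2696) and the lowest at 0.631 (vincristine 2869).

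The etoposide and vincristine derivatives were then compared with each other, since lines 2883 and 2696 have both. The difference is that of the 2 drug terms in the model over all 16 libraries, so the vincristine side also draws on the derivative of 2869. Of the 6 comparisons tested, this one alone gave a call over all genes. Lss was higher in the etoposide derivatives by 1.71 ± 0.18 on the log2 scale (SE, n = 2 etoposide and 3 vincristine derivatives; limma adjusted p = 0.0483), and 1 of 13261 genes was called (0.00754%). Within the shared lines alone Lss was 2.77-fold higher in the etoposide derivative of 2883 and 4.05-fold in that of 2696. Of the 37 genes, 19 had an unadjusted p under 0.05 (9.28% of all genes); 19 were higher with etoposide, against 5.1% of all genes, 0 were lower against 4.18%, and the median difference was 0.74 against 0.00 for all genes. Within line 2696 the median ratio of etoposide to vincristine was 2.31, with 26 genes higher by at least 1.5-fold (18.1% of all genes) and 1 lower (11.5%). Within line 2883 it was 1.47, with 18 genes higher by that much (20.8%) and 2 lower (16%). The etoposide library was the higher in both lines for 25 genes (28.4% of all genes) and the lower in both for 1, Ebp (28.6%). The call on Lss is marginal: its direction held in all 22 alternative settings or left-out libraries, with adjusted p from 0.0279 to 0.679, and it was lost in 18 of them. The proliferation markers also differ here, at 2718 CPM with etoposide and 3942 with vincristine in 2883 and at 2092 and 4231 in 2696. Most of that gap was Top2a, at 515.8 and 1310 CPM in 2883 and at 353.5 and 1890 in 2696. Ccnb1 went the other way in 2696 (157.3 and 137.9). The part of these markers was not tested.

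**Figure D3:**
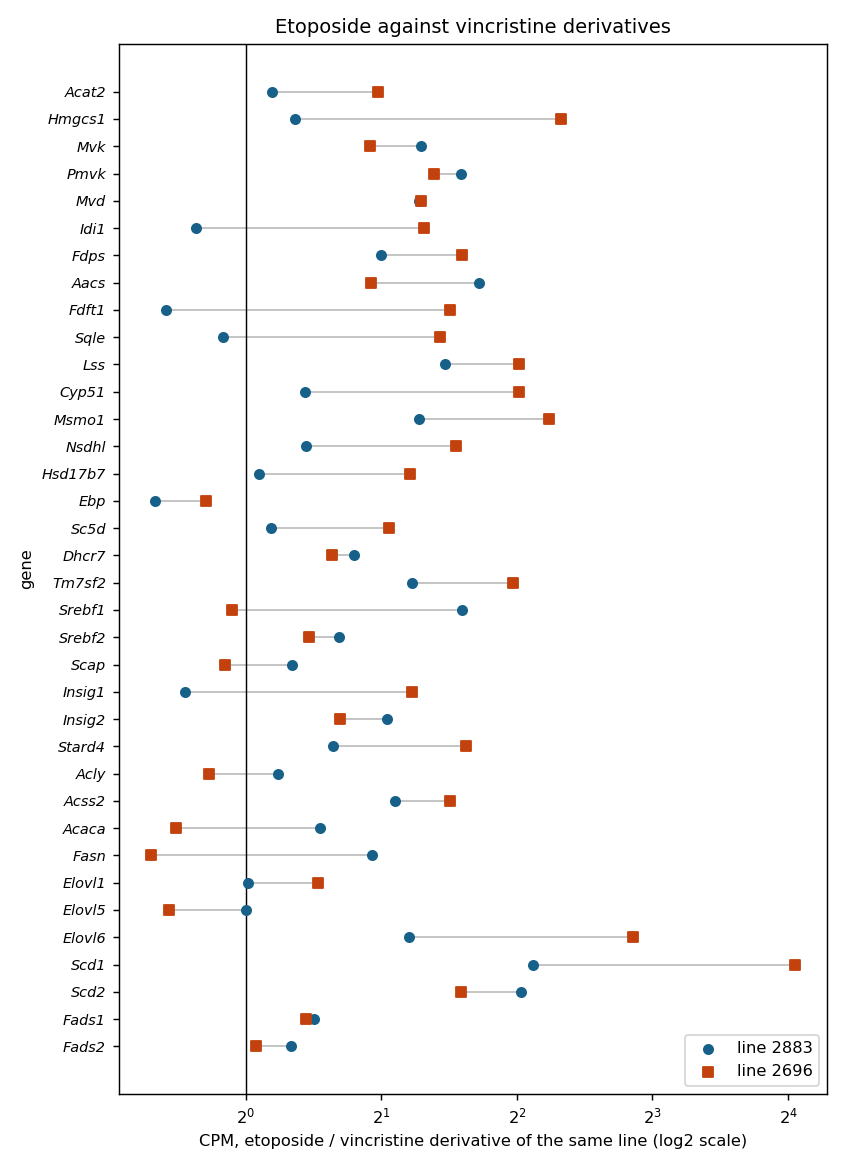
Ratio of CPM in the etoposide derivative to CPM in the vincristine derivative of the same line (log2 axis) for 36 genes (Me1 left out), with line 2883 as circles and line 2696 as squares. Points right of 1 are higher with etoposide, which holds in both lines for Lss (2.77 and 4.05) and Msmo1 (2.42 and 4.71), while Ebp lies left of 1 in both.

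In what follows, values of the derivatives are listed by drug in the order of lines 7298, 2883 and 2869 for cytarabine, 2883 and 2696 for etoposide, 2883 and 2641 for prednisone, 2883 for methotrexate, and 2883, 2696 and 2869 for vincristine. Positions are on mm10.

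The mevalonate arm makes the isoprenoid units. In the etoposide against vincristine contrast 8 of its 8 genes had a positive difference, against 50.2% of all genes. An unadjusted p under 0.05 was reached by 7 of them, against 5.1% of all genes on that side. The median was 1.35, with a range of 0.67 to 1.63. Aacs (chr5:125475814-125517411), acetoacetyl-CoA synthetase, feeds ketone-derived carbon into the arm. Parental cultures were at 170.0 CPM in 7298, 106 in 2883, 52.9 in 2696, 39.0 in 2641 and 65.9 in 2869. The derivatives reached 186, 122 and 85.7 CPM (cytarabine), 311 and 120.4 (etoposide), 136 and 67.7 (prednisone), 82.2 (methotrexate) and 94.5, 63.3 and 69.1 (vincristine). Both etoposide derivatives lay above every other culture of their own lines, at 2.93-fold (95% counting interval 2.75 to 3.12) and 2.28-fold (2.09 to 2.48) of parental, whereas the vincristine derivatives stood between 0.889 and 1.20. Against vincristine the log2 difference was 1.33 ± 0.19 (limma adjusted p = 0.155).

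Mvk (chr5:114444269-114460592) encodes mevalonate kinase, the enzyme that phosphorylates mevalonate. Parental Mvk was at 49.4 CPM in 7298, 23.5 in 2883, 25 in 2696, 20.5 in 2641 and 20.8 in 2869. The derivatives gave 40.7, 15.4 and 20.1 CPM (cytarabine), 51.1 and 37.3 (etoposide), 33.6 and 33.2 (prednisone), 16.4 (methotrexate) and 20.9, 19.7 and 16.7 (vincristine). The etoposide and prednisone derivatives were each above their parental culture, and the 3 vincristine, 3 cytarabine and the methotrexate derivatives were each below. Etoposide stood 1.14 ± 0.23 above vincristine on the log2 scale (limma adjusted p = 0.353).

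Pmvk (chr3:89454541-89469014), the kinase of the next step, had parental levels of 49.2 CPM in 7298, 19.4 in 2883, 27.4 in 2696, 21.3 in 2641 and 24.7 in 2869. In the derivatives it was at 39.1, 18.2 and 16.2 CPM (cytarabine), 45.4 and 28.9 (etoposide), 14.3 and 27.6 (prednisone), 27.8 (methotrexate) and 15.1, 11.0 and 10.3 (vincristine). The vincristine derivatives of 2696 and 2869 had the lowest levels of their lines and of all 16 libraries, and the etoposide derivative of 2883 had 2.33 times the parental level (2.01 to 2.72), whereas that of 2696 had 1.06 (0.922 to 1.22). The log2 difference of etoposide from vincristine was 1.51 ± 0.33 (limma adjusted p = 0.379).

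Mvd (chr8:122433601-122443423), the decarboxylase that closes the arm's kinase steps, was above parental in most derivatives. In parental cultures it was at 103 CPM in 7298, 24.0 in 2883, 30.9 in 2696, 14.2 in 2641 and 19.0 in 2869. Its derivatives reached 102, 53.7 and 29.5 CPM (cytarabine), 59.8 and 74.0 (etoposide), 42.9 and 34.2 (prednisone), 43.2 (methotrexate) and 24.6, 30.2 and 12.0 (vincristine). Levels were 1.56- to 2.50-fold of parental in the derivatives of etoposide, prednisone and methotrexate and in the cytarabine derivatives of 2883 and 2869. The cytarabine derivative of 7298 (0.994) and the vincristine derivatives (0.631 to 1.03) were not. The differences were 1.11 ± 0.27 for etoposide (limma adjusted p = 0.557), 0.83 ± 0.27 for prednisone (0.518) and 1.37 ± 0.28 for etoposide against vincristine (0.353). Mvd overlaps Galnt2l on the other strand; the library kit keeps strand, but whether the counting used it is not given in the sources used here.

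Hmgcs1 (chr13:119690379-119708261), the synthase that makes HMG-CoA and the gene with the element core in its promoter, had the widest range of the arm. The parental cultures held 1237 CPM in 7298, 625 in 2883, 377 in 2696, 333 in 2641 and 277 in 2869. The derivatives held 1201, 569.6 and 418 CPM (cytarabine), 734 and 890.2 (etoposide), 524 and 494 (prednisone), 333 (methotrexate) and 569, 177 and 91.5 (vincristine). Between the vincristine and the etoposide derivative of 2696 the level differed 5.02-fold (4.83 to 5.23), but only 1.29-fold (1.25 to 1.33) in 2883. The vincristine derivative of 2869 had 0.330 of the parental level (0.311 to 0.350), and the contrast of the drugs was 1.63 ± 0.46 (limma adjusted p = 0.475), where the shared lines gave 0.37 and 2.32. The other members of the arm were the thiolase Acat2, the isomerase Idi1 and the farnesyl diphosphate synthase Fdps. Each had a negative difference with vincristine at an unadjusted p under 0.05 (-0.37 ± 0.17, -0.91 ± 0.32 and -0.74 ± 0.28). Fdps was below parental in the vincristine derivatives of 2696 (0.465) and 2869 (0.369) but not in that of 2883 (1.08). Idi1 was at 0.280 of parental in the vincristine derivative of 2869 and also at 0.596 in the etoposide derivative of 2883, against its arm's median there of 2.17.

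The squalene to cholesterol group had positive medians against parental with etoposide and prednisone and a negative one with vincristine. Prednisone was not tested against vincristine. Its median log2 difference was 0.57 for etoposide, 0.60 for prednisone, 0.21 for cytarabine and -0.37 for vincristine. With etoposide against vincristine, 10 of 11 genes were positive, against 50.2% of all genes. Lss (chr10:76531588-76557139) encodes lanosterol synthase, which folds squalene epoxide into lanosterol. Parental Lss was at 345 CPM in 7298, 129 in 2883, 101 in 2696, 127 in 2641 and 107 in 2869. The derivatives stood at 324, 175 and 133 CPM (cytarabine), 266 and 254 (etoposide), 207 and 228 (prednisone), 248 (methotrexate) and 96.2, 62.6 and 77.5 (vincristine). No vincristine derivative reached its parental level, and every etoposide, prednisone and methotrexate derivative exceeded it. The cytarabine derivatives of 2883 and 2869 exceeded it too, and that of 7298 did not. Of all genes, 19.9% were below parental in every vincristine derivative, and 24.4% and 25.8% were above it in every etoposide and every prednisone derivative. The share with all of these at once was not counted, and Lss was chosen by its p-value in these data. The ratio of etoposide to vincristine was 2.77 in 2883 (2.60 to 2.94) and 4.05 in 2696 (3.79 to 4.34).

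Msmo1 (chr8:64718139-64733793), methylsterol monooxygenase, removes methyl groups from lanosterol products. Its parental levels were 285 CPM in 7298, 136 in 2883, 103 in 2696, 77.6 in 2641 and 83.0 in 2869. The derivative levels were 236, 119 and 108 CPM (cytarabine), 175 and 244 (etoposide), 165 and 143 (prednisone), 199 (methotrexate) and 72.2, 51.9 and 40.6 (vincristine). All 3 vincristine derivatives lay near the same share of parental: 0.532 (0.492 to 0.575), 0.504 (0.462 to 0.549) and 0.490 (0.445 to 0.539), which gave -0.97 ± 0.20 on the log2 scale (limma adjusted p = 0.158). Genes within 2 Mb of Msmo1, only 3 of them, had median ratios of 0.454, 1.33 and 1.18 in the same derivatives. In that of 2883 the surroundings were thus low as well, and their part was not tested. The etoposide derivatives were 1.29- and 2.37-fold of parental, and the contrast of etoposide with vincristine was 1.80 ± 0.25 (limma adjusted p = 0.155).

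Nsdhl (chrX:72918557-72958515) encodes a sterol dehydrogenase of the same demethylation steps. The parental cultures had 156 CPM in 7298, 43.8 in 2883, 44.8 in 2696, 32.5 in 2641 and 32.8 in 2869. In the derivatives the levels were 142, 83.5 and 40.3 CPM (cytarabine), 71.8 and 75.9 (etoposide), 94.2 and 69.0 (prednisone), 97.7 (methotrexate) and 52.7, 25.9 and 18.0 (vincristine). Both prednisone derivatives stood about equally above parental (2.15 and 2.12; 0.86 ± 0.28, limma adjusted p = 0.526). The vincristine derivatives of 2696 and 2869 were at 0.579 and 0.549 of parental, but that of 2883 at 1.20. Against vincristine, etoposide stood at 1.07 ± 0.29 (0.466).

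Tm7sf2 (chr19:6062821-6068374), a sterol reductase that shares its strand and part of its span with Vps51, was the lowest of the group. Parental levels were 32.9 CPM in 7298, 13.1 in 2883, 18.3 in 2696, 11.7 in 2641 and 17.4 in 2869. Derivative levels were 18.8, 21.4 and 29.1 CPM (cytarabine), 38.1 and 30.1 (etoposide), 15.2 and 17.0 (prednisone), 21.5 (methotrexate) and 16.3, 7.64 and 7.16 (vincristine). The vincristine derivatives of 2696 and 2869 were at 0.419 and 0.411 of parental and the etoposide derivatives at 2.93 and 1.64, with a contrast of 1.73 ± 0.45 (limma adjusted p = 0.460). Reads in the stretch shared with Vps51 could belong to either gene.

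Dhcr7, the reductase of the last step, was the other enzyme of this group that stood higher at an unadjusted p under 0.05 with etoposide (0.74 ± 0.24), prednisone (0.60 ± 0.24) and cytarabine (0.55 ± 0.20). The epoxidase Sqle did so with prednisone (0.70 ± 0.30) and the desaturase Sc5d with etoposide against vincristine (0.59 ± 0.22). Ebp, the sterol isomerase, lay on the other side of 0 from the rest of its group in the contrast of etoposide with vincristine. It was at 0.680 of parental in the etoposide derivative of 2696 and at 1.61 in the vincristine derivative of 2883, and -0.45 ± 0.26 between the drugs (limma adjusted p = 0.604). Fdft1, squalene synthase, was at 0.672 of parental in the etoposide derivative of 2883 but 2.13 in that of 2696; it overlaps Ctsb on the other strand. Hsd17b7 was at 2.46 and 2.42 in the etoposide derivative of 2696 and the prednisone derivative of 2641, and near 1 in the 2883 derivatives of the same drugs (0.989 and 0.866).

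Cyp51 (chr5:4081145-4104747), lanosterol demethylase, was singled out after its values were seen; it overlaps Akap9 on the other strand. Parental cultures were at 512 CPM in 7298, 251 in 2883, 293 in 2696, 169.7 in 2641 and 149 in 2869. Across the derivatives it was at 377, 285 and 207 CPM (cytarabine), 333 and 775 (etoposide), 277 and 408 (prednisone), 352 (methotrexate) and 246, 192 and 686 (vincristine). It followed its group in line 2696, with 2.64 of parental for etoposide and 0.653 for vincristine. In line 2869 the vincristine derivative held 4.62 times the parental level (4.40 to 4.84), while the other 10 genes of its group lay between 0.391 and 1.15 there. Summed over the 19 sterol enzyme genes, that derivative reached 1500.1 CPM against 1665 in its parental culture, and Cyp51 made up 686 CPM of that sum.

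**Figure D4:**
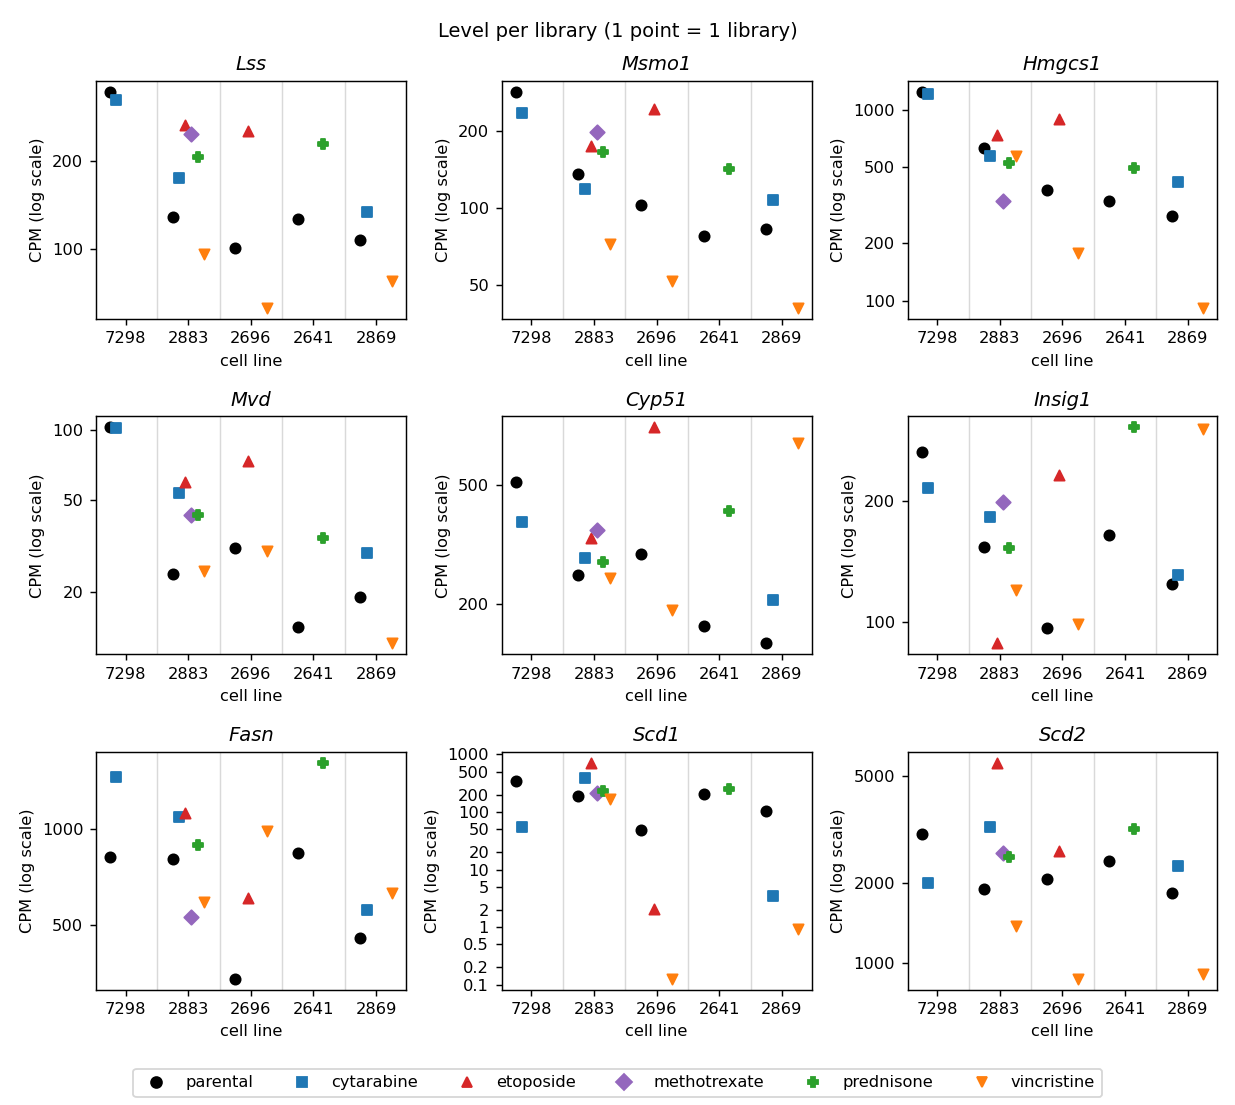
CPM (log axis) of 9 genes in each of the 16 libraries, arranged by cell line, with the parental library in black and 1 symbol per drug. Vincristine points (triangles pointing down) are the lowest of their line for Lss and Msmo1 in 2883, 2696 and 2869; Cyp51 and Insig1 are high in the vincristine derivative of 2869, and Scd1 is at 3.49 CPM or less in 4 derivatives.

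The SREBP regulators had medians nearer 0 than both sterol enzyme groups with etoposide and vincristine, a difference that was not tested. Their median log2 difference was 0.38 for etoposide, 0.29 for prednisone, 0.18 for cytarabine and -0.05 for vincristine. Srebf2 (chr15:82147181-82205380), which encodes the main factor of the sterol genes, was at 524 CPM in 7298, 495 in 2883, 442 in 2696, 368 in 2641 and 409 in 2869 in the parental cultures. Derivative levels came to 567, 655 and 439 CPM (cytarabine), 647 and 586 (etoposide), 578 and 500.0 (prednisone), 527 (methotrexate) and 401, 424 and 445 (vincristine). The highest library held 1.78 times the lowest, the narrowest range of the 37 genes. Etoposide stood 0.41 ± 0.17 above parental (limma adjusted p = 0.563) and 0.49 ± 0.18 above vincristine (0.517). Srebf1, the factor tied more to fatty acid genes, was at 2.55 of parental in the etoposide and 1.95 in the cytarabine derivative of 2883, and between 0.846 and 1.54 in the other derivatives; it overlaps Rai1 on the other strand.

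Scap (chr9:110333288-110384951), the escort protein, was at 66.6 CPM in 7298, 98.3 in 2883, 82.9 in 2696, 64.2 in 2641 and 82.7 in 2869 in the parental cultures. The derivatives were at 87.1, 103 and 118 CPM (cytarabine), 104 and 88.5 (etoposide), 115 and 101 (prednisone), 84.7 (methotrexate) and 82.1, 98.5 and 134 (vincristine). Both prednisone derivatives were above parental (0.53 ± 0.20; limma adjusted p = 0.549), and so were 9 of 11 derivatives in all, the exceptions being methotrexate 2883 (0.861) and vincristine 2883 (0.834).

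Insig2 (chr1:121304353-121332590), a retention factor, was at 40.0 CPM in 7298, 22.9 in 2883, 70.3 in 2696, 23.9 in 2641 and 24.8 in 2869 in the parental cultures. In the derivatives it was at 37.2, 21.4 and 16.6 CPM (cytarabine), 34.2 and 54.9 (etoposide), 24.1 and 21.5 (prednisone), 24.6 (methotrexate) and 16.7, 33.8 and 18.8 (vincristine). Parental 2696 held the most of all 16 libraries, and the vincristine derivatives were each below their parental culture (0.727, 0.481 and 0.761; -0.57 ± 0.20, limma adjusted p = 0.317). The etoposide derivatives split, at 1.5 in 2883 and 0.780 in 2696.

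Insig1 (chr5:28071363-28078663), a retention factor that is itself a known SREBP target, was singled out after its values were seen. In parental cultures it was at 264 CPM in 7298, 154 in 2883, 97.1 in 2696, 164 in 2641 and 125 in 2869. Among derivatives the values were 216, 182 and 131 CPM (cytarabine), 88.7 and 232 (etoposide), 153 and 305 (prednisone), 199 (methotrexate) and 121, 99.0 and 302 (vincristine). The etoposide derivatives lay on opposite sides of parental, at 0.576 (0.536 to 0.619) in 2883 and 2.39 (2.24 to 2.54) in 2696. In the vincristine derivative of 2869 it was at 2.43 (2.30 to 2.56).

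Stard4 (chr18:33199355-33213863) encodes a carrier that moves cholesterol between membranes. It stood at 289 CPM in 7298, 184 in 2883, 152 in 2696, 207 in 2641 and 121 in 2869 in the parental cultures. The derivatives stood at 227, 192 and 129.8 CPM (cytarabine), 259 and 227 (etoposide), 235 and 207 (prednisone), 214 (methotrexate) and 166, 73.5 and 84.3 (vincristine). Every vincristine derivative was below parental (-0.63 ± 0.18; limma adjusted p = 0.251) and both etoposide derivatives were above it (0.50 ± 0.21; 0.568). The contrast of the drugs was 1.13 ± 0.22 (0.353).

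Fatty acid supply and synthesis was mixed. With vincristine the log2 differences were 0.59 for Fasn, 0.36 for Acly, 0.12 for Acaca and -1.16 for Acss2, and with etoposide they were 0.68, 0.34, 0.19 and 0.26 in the same order. Between etoposide and vincristine, Acss2 stood at 1.42 and Fasn, Acaca and Acly at 0.09, 0.06 and -0.02. Fasn (chr11:120805846-120824548), fatty acid synthase, was at 813 CPM in 7298, 802 in 2883, 338 in 2696, 839 in 2641 and 452 in 2869 in the parental cultures. The 11 derivatives were at 1455, 1090.0 and 557 CPM (cytarabine), 1124 and 607 (etoposide), 887 and 1612 (prednisone), 528 (methotrexate) and 589, 984 and 630.4 (vincristine). In line 2696 the vincristine derivative had the most (2.91 times parental, 2.82 to 3.01) and the etoposide derivative less (1.79, 1.73 to 1.86), whereas in 2883 the order was the reverse (0.734 and 1.40). Fasn was above parental in each cytarabine derivative (0.69 ± 0.31; limma adjusted p = 0.530), most in 7298 (1.79).

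Acly (chr11:100476353-100528001), which makes cytosolic acetyl-CoA from citrate, was at 608 CPM in 7298, 428 in 2883, 334 in 2696, 475 in 2641 and 326 in 2869 in the parental cultures. The derivatives held 635, 505 and 277 CPM (cytarabine), 544 and 444 (etoposide), 502 and 721 (prednisone), 402 (methotrexate) and 461, 535 and 377 (vincristine). It was the member that stood above parental in all 3 vincristine derivatives (1.08, 1.60 and 1.16; 0.36 ± 0.16, limma adjusted p = 0.381). Genes within 2 Mb of Acly had median ratios of 1.05, 1.40 and 1.42 in the same derivatives. The part of these surroundings was not tested.

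Acss2 (chr2:155517948-155585725), which makes acetyl-CoA from acetate, varied widely; it overlaps Gss and Ggt7 on the other strand. Its parental levels were 29.8 CPM in 7298, 34.3 in 2883, 25.8 in 2696, 27.2 in 2641 and 22.3 in 2869. In resistant cultures it was at 14.4, 57.3 and 4.49 CPM (cytarabine), 68.2 and 38.6 (etoposide), 59.1 and 23.5 (prednisone), 39.0 (methotrexate) and 31.7, 13.6 and 3.73 (vincristine). Both derivatives of 2869 were low, at 0.201 (0.154 to 0.259) of parental for cytarabine and 0.167 (0.125 to 0.219) for vincristine. With vincristine the difference was -1.16 ± 0.41 (limma adjusted p = 0.317). Acaca, acetyl-CoA carboxylase, was highest in the vincristine derivative of 2696 (1.94 of parental) and lowest in the methotrexate derivative (0.656).

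Among the elongases and desaturases the stearoyl-CoA desaturases, which put the double bond into oleate, varied widely. Scd2 (chr19:44293674-44306865) was at 3033 CPM in 7298, 1886 in 2883, 2062 in 2696, 2401 in 2641 and 1831 in 2869 in the parental cultures. The derivatives were at 1989, 3224 and 2305 CPM (cytarabine), 5608 and 2622 (etoposide), 2497 and 3176 (prednisone), 2568 (methotrexate) and 1372, 874 and 909 (vincristine). Each vincristine derivative was below parental (0.728, 0.424 and 0.497; -0.98 ± 0.27, limma adjusted p = 0.240), and the etoposide derivative of 2883 was 2.97 times parental. Etoposide stood 1.85 ± 0.32 above vincristine (0.250).

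Scd1 (chr19:44394455-44407880), its neighbour and paralog, was near 0 in some derivatives and not in others. Parental cultures were at 343 CPM in 7298, 191 in 2883, 47.9 in 2696, 208 in 2641 and 103 in 2869. Resistant cultures held 55.6, 391 and 3.49 CPM (cytarabine), 717 and 2.10 (etoposide), 230.1 and 248 (prednisone), 213 (methotrexate) and 165, 0.127 and 0.936 (vincristine). In line 2696, 629 parental reads stood against 2 with vincristine (ratio 0.00252, 0.000304 to 0.00913) and 36 with etoposide (0.0437, 0.0303 to 0.0612). Line 2869 had 1395 parental reads against 16 with vincristine (0.00900) and 59 with cytarabine (0.0337). The cytarabine derivative of 7298 was at 0.162 of parental. The 5 derivatives of 2883 and the prednisone derivative of 2641 lay between 0.864 and 3.75. The vincristine difference, -3.60 ± 1.05 (limma adjusted p = 0.255), rests on the derivatives of 2696 and 2869. Reads that match Scd1 and Scd2 equally could be assigned to either.

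Elovl6 (chr3:129532355-129638496), which lengthens palmitate to stearate, was at 234 CPM in 7298, 84.7 in 2883, 28.7 in 2696, 131 in 2641 and 20.0 in 2869 in the parental cultures. In the derivatives it was at 214, 26.3 and 3.55 CPM (cytarabine), 103 and 21.0 (etoposide), 50.8 and 126 (prednisone), 49.4 (methotrexate) and 44.7, 2.90 and 19.5 (vincristine). The lowest values were in the vincristine derivative of 2696 (0.101 of parental, 0.0732 to 0.137) and the cytarabine derivatives of 2869 (0.177) and 2883 (0.311). Only the etoposide derivative of 2883 was above its parental culture (1.22).

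Fads1 (chr19:10182888-10196878), a desaturase of polyunsaturated fatty acids, was at 95.6 CPM in 7298, 111 in 2883, 57.5 in 2696, 91.4 in 2641 and 58.2 in 2869 in the parental cultures. Its derivatives were at 96.1, 123 and 88.6 CPM (cytarabine), 146 and 127 (etoposide), 134 and 142 (prednisone), 114 (methotrexate) and 103, 93.1 and 40.1 (vincristine). Etoposide stood 0.64 ± 0.27 above parental (limma adjusted p = 0.567) and 0.67 ± 0.28 above vincristine (0.531). Fads2, which lies beside it, was at 2.34, 2.22 and 1.95 of parental in the etoposide and vincristine derivatives of 2696 and the prednisone derivative of 2641, and at 0.679 in the vincristine derivative of 2869. The elongases Elovl1 and Elovl5 varied less, between 0.784 and 1.38 and between 0.878 and 2.03 of parental; Elovl1 overlaps Cdc20 on the other strand.

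The methotrexate derivative of 2883 was 1 library and has no replicate check. Against its parental library 8 of 37 genes were higher by at least 1.5-fold (15.6% of all genes) and 5 lower (16.2%). The 19 sterol enzyme genes had a median ratio of 1.47, against 0.938 for all genes. The highest were Nsdhl (2.23, 2.02 to 2.47), Lss (1.93, 1.81 to 2.05) and Mvd (1.80, 1.56 to 2.08). The lowest were Me1, with 2 reads against 5 (0.345, 0.0329 to 2.11), Hmgcs1 (0.533, 0.514 to 0.553) and Elovl6 (0.584, 0.529 to 0.643). Fasn and Acaca were also lower, at 0.659 and 0.656, while Acss2 was at 1.14. Of the 19 sterol enzyme genes 15 were above parental, against 42.9% of all genes. The 4 below included Mvk (0.700) and Aacs (0.773). The summed level of the mevalonate arm was 0.964 of parental. These intervals cover counting error only.

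Some members stood out from their group together with the genes around them on the chromosome. For each member and derivative, the median ratio to parental was taken over genes within 2 Mb with at least 5 CPM in either library, a description added after values were seen. Around Cyp51 in the vincristine derivative of 2869 the 17 neighbours had a median ratio of 5.43, with 14 of them at 1.5 or more, and around Insig1 the 7 neighbours had 4.10. Along chromosome 5 of that derivative, every 5 Mb window with genes from 0 to 40 Mb had a median ratio of 3.67 to 9.54, and the window from 40 to 45 Mb had 0.798. The stretch holds Abcb1a (chr5:8660077-8748576), the drug efflux pump gene, at 3909 CPM against 15.8 in the parental culture. Abcb1a was also high in the derivatives of 2883 for etoposide (3757 CPM) and vincristine (5237 CPM), where the window from 5 to 10 Mb had median ratios of 47.3 and 49.9, but there Cyp51 (1.32 and 0.978) had neighbours at 0.917 and 1.02. In line 2696 Abcb1a was at 285.9 CPM with etoposide and 178.1 with vincristine, against 4.24 in the parental culture. That window had median ratios of 0.871 and 1.85 there. In the derivative of 2869, Cyp51 and Insig1 were below the median of their neighbours; the copy number of the stretch was not measured.

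Neighbour medians of at least 1.5, or as far below 1, were also found elsewhere among members with at least 5 neighbours. Msmo1 has 3 and is not in that list, but in the vincristine derivative of 2883 it (0.532) lay among genes at 0.454. In the etoposide derivative of 2883, Insig1 (0.576) lay among genes at 0.436, Fdft1 (0.672) among genes at 0.534, Mvk (2.18) among genes at 1.58 and Aacs (2.93) among genes at 1.81. Just under the mark of 1.5 in that derivative, Pmvk (2.33) and Fdps (2.155) lay among genes at 1.499 and 1.491. Hmgcs1 in the methotrexate derivative (0.533) lay among genes at 0.479, and in the vincristine derivative of 2696 Fasn (2.91) lay among genes at 1.66 and Acaca (1.94) among genes at 1.61. On the same chromosome as Fasn and Acaca, Acly (1.60) and Srebf1 (1.34) lay in that derivative among genes at 1.40 and 1.47. Sc5d did not share the level of its surroundings: it was at 1.02 and 1.12 in the cytarabine derivatives of 2883 and 2869, among genes at 1.89 and 1.51. The part of the surroundings in these values was not tested. Lss, by contrast, had neighbours at 1.10 and 1.07 in the etoposide and at 1.04, 1.01 and 1.17 in the vincristine derivatives. Scd1 at its lowest had neighbours at 0.989 (vincristine 2696), 0.904 (vincristine 2869), 1.00 (etoposide 2696) and 1.20 (cytarabine 2869).

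**Figure D5:**
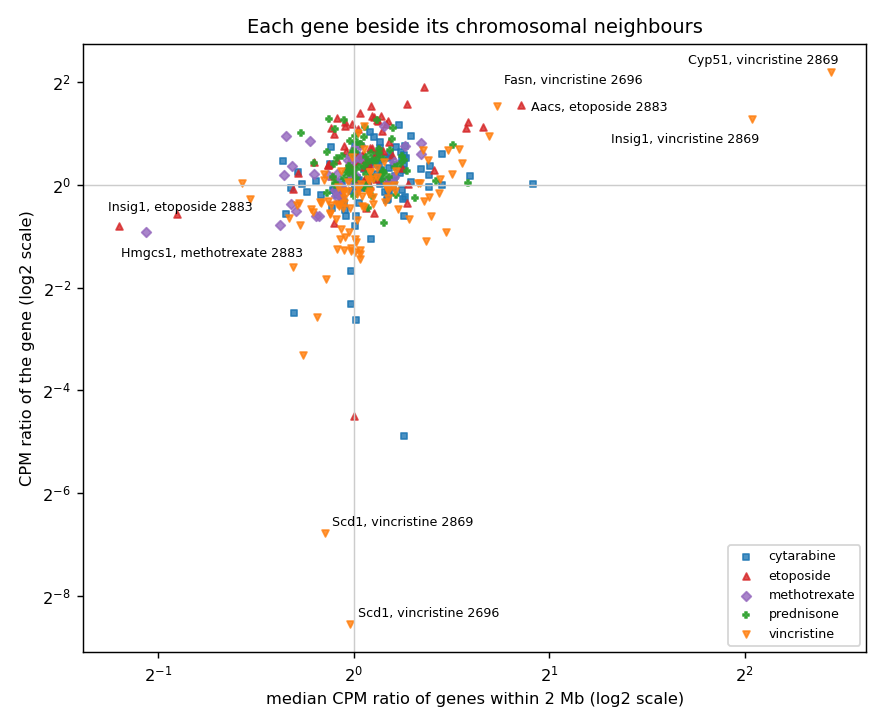
Ratio of CPM to the parental library for each gene in each derivative (vertical, log2 axis) against the median ratio of genes within 2 Mb (horizontal, log2 axis), for genes with at least 5 such neighbours (Me1 left out), coloured by drug. Cyp51 and Insig1 of vincristine 2869 lie far right with their neighbours (5.43 and 4.10), while the low Scd1 points lie at the bottom near a neighbour ratio of 1.

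Other genes of sterol and fatty acid handling, were taken from a list of 40, of which 37 were tested. With etoposide 4 of 37 were higher at an unadjusted p under 0.05 and 0 lower, with vincristine 6 higher and 3 lower, with prednisone 1 and 0, with cytarabine 2 and 1, and with etoposide against vincristine 6 and 1, beside the shares of all genes given above. Limma called none of these 37 at an adjusted p under 0.05. Scarb1, a lipoprotein receptor that takes up cholesterol, was at 238 and 97.4 CPM in the etoposide derivatives of 2883 and 2696 against 61.8 and 48.1 in the parental cultures (1.46 ± 0.24; limma adjusted p = 0.191). Acsl3, an acyl-CoA synthetase, was 0.74 ± 0.32 above parental with etoposide, -0.90 ± 0.27 with vincristine and 1.64 ± 0.33 between them. Scarb1 stood 1.46 ± 0.25 above vincristine. The citrate carrier Slc25a1 (1.17 ± 0.30) and Mbtps2, the SREBP protease (0.72 ± 0.19), also stood higher with etoposide than with vincristine.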

How the data were processed

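RNA of 16 cultures was sequenced. Expression came as 1 table that the authors deposited, with FPKM values of 13474 genes; cutadapt, STAR, Partek and mm10 are named per the submitters' processing notes, while annotation, counting method and use of strand were not given in the sources used here. For each gene the deposited FPKM uses the whole gene span as length, so CPM was taken as FPKM times span in kilobases, with no further scaling: the planned scaling to the library total was not applied, since the library sums were already nearly equal. Each library has a lowest value shared by many genes, read here as 0 reads plus a constant of 0.1 read; depth and reads follow from that reading and are estimates. With them, 70.5% to 75.7% of values between 0.5 and 200 reads lay within 0.05 of a whole read, too few for a test on counts.

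The test was limma 3.58.1 (R 4.3.3, moderated by eBayes with trend) on log2(CPM + 1), for 13261 genes with at least 1 CPM in at least 2 libraries, all 37 members among them. The model had a term per cell line and per drug over all 16 libraries, and a separate model had 1 term for resistance. P-values are two-sided and Benjamini-Hochberg adjusted over all 13261 genes. Derivatives are paired with the parental culture through the line that the labels give them; labels do not say whether cultures of a line were grown separately, and p-values measure the spread between these libraries. Ratios have exact 95% binomial (Clopper-Pearson) intervals on reads, for counting error only; reads without molecular identifiers are not independent molecules. The script was tested on simulated data. Python 3.11.15 with scipy 1.17.1, pandas 2.3.3 and matplotlib 3.10.9 did the rest.

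The members, gene lists and tests were chosen with earlier results of these data known. Values in every library are given for members with an unadjusted p under 0.05 in a comparison of 1 drug with parental or of etoposide with vincristine, at most 4 per group by smallest p, and for the 3 highest and 3 lowest ratios with methotrexate; other genes of the pathway are named by the same p, at most 4 per comparison. Cyp51 and Insig1 were given in full beyond that rule, and Me1 by its range of reads and its methotrexate ratio. Exon lengths came from GENCODE vM21, whose spans are the same for all 37 members, and promoter sequences from RefSeq. Overlaps were found from the positions in the deposited table, so only genes with a row there could be named. Some genes of the pathway are not reported here.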

Additional observations from a re-analysis of the deposited data

Results flagged for a closer look

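Among the 5 parental libraries, 10 of the 37 genes had a library set apart by a gap of more than 0.71 of the group's range. Chance sets apart about 1 group in 20, and genes of the same library are not independent. In 9 of the 10 genes the library was that of 7298, the SCL/LMO1 line, at the high end: Mvk at 49.4 CPM, Pmvk at 49.2, Mvd at 103.0, Fdps at 358, Fdft1 at 174, Lss at 345, Msmo1 at 285, Nsdhl at 156 and the elongase gene Elovl1 at 78.1. The nearest other parental library was at 25, 27.4, 30.9, 185, 88.9, 129, 136, 44.8 and 50.3 CPM in the same order. In the remaining gene, Ebp, parental 2883 was the low one, at 22.4 CPM against 31.2 in the next.

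Lss differed by 1.71 on the log2 scale between the etoposide and the vincristine derivatives, tested as a contrast within the model (limma adjusted p = 0.0483). The etoposide derivative was the higher in both shared lines. The call is marginal and was lost in 18 of 22 alternative settings or left-out libraries.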

How the results depend on the processing

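Without the replicate block, that is without the term that pairs cultures of a line, members at an unadjusted p under 0.05 numbered 1 for cytarabine, 6 for etoposide, 1 for prednisone and 2 for all resistant cultures. The vincristine median was then -0.45, with 4 genes called over all genes. For etoposide against vincristine, 0 genes and 0 members were called with no replicate block, with log2(FPKM + 1), with a pseudocount of 0.1 CPM and with no filter. With log2(FPKM + 1), 2 genes were called for prednisone. The cause of these changes was not tested.

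Leaving out each library in turn, members at an unadjusted p under 0.05 numbered 2 to 7 for cytarabine, 7 to 17 for vincristine, 7 to 17 with etoposide, 1 to 11 with prednisone, 12 to 21 for etoposide against vincristine and 1 to 8 for all resistant cultures. Over all genes, limma called 0 to 1, 0 to 9, 0 to 33, 0 to 15, 0 to 24 and 0 to 0 in that order. Members called numbered 0 to 1 for etoposide (Aacs, without etoposide 2696), 0 to 2 for etoposide against vincristine (2 without etoposide 2883) and 0 elsewhere. The members' medians were 0.04 to 0.30, -0.38 to -0.20, 0.37 to 0.62, 0.23 to 0.55, 0.55 to 1.02 and 0.09 to 0.21. Where 1 derivative of a drug is left, it is assumed to vary like the other groups. No single-gene result reversed, 18 lost a call (all Lss) and 3 gained one.

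Median-of-ratios scaling moved the share of unadjusted calls on the higher side from 39.8% to 50.4% for vincristine and from 42.5% to 52.6% for etoposide; the members above 0 stayed at 33 for etoposide and numbered 14 in place of 12 for vincristine. For cytarabine 27 members above 0 became 24, or 22 under quantile normalization. Each drug has at most 3 derivatives, and depth cannot be told apart from resistance in any comparison with parental cultures.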

Other observations

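Cpt1a, which brings fatty acids into mitochondria for oxidation, was at 409, 188 and 149.5 CPM in the vincristine derivatives of 2883, 2696 and 2869 against 138, 114 and 94.8 in their parental cultures. The cytarabine derivatives of 7298, 2883 and 2869 held 117, 305 and 186 CPM, with 64.1 in parental 7298. The other derivatives were above parental too, at 262 and 123 CPM (etoposide 2883 and 2696), 220.4 (methotrexate 2883) and 219 and 146 (prednisone 2883 and 2641, with 106 in parental 2641). Cpt1a was thus above parental in 11 of 11 derivatives, where 0.686% of all genes were. It was picked by its p-value in these data, and the derivatives of 2883 share a parental library. The log2 difference was 0.97 ± 0.18 for vincristine (limma adjusted p = 0.158), 0.93 ± 0.18 for cytarabine (0.494) and 0.72 ± 0.17 for all resistant cultures (0.499), none called.

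With vincristine, the sterol transfer protein gene Stard3 stood at 0.74 ± 0.18 (limma adjusted p = 0.221) and Mbtps2 at -0.53 ± 0.16 (0.263). Npc1, which moves cholesterol out of lysosomes and was picked in the same way, was also above parental in 11 of 11 derivatives (0.686% of all genes), by 1.16- to 2.47-fold. It stood at 0.65 ± 0.20 with vincristine (limma adjusted p = 0.272), 0.61 ± 0.20 with cytarabine (0.496) and 0.50 ± 0.16 for all resistant cultures (0.542). The isoprenoid synthase gene Ggps1 stood at -0.62 ± 0.27 with cytarabine (0.528). Depth is also higher in every derivative than in every parental culture.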
